A study of Mus musculus with 42 samples.

Results

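In the series of 42 single retinal cells, 6 cells were marked by the study as transitional, that is, as cells whose profile carried genes of both retinal progenitor cells (RPCs) and neurons. They were A6 of E13.5, B1 of E14.5, the cells D5, E5 and F1 of E16.5, and C5 of P0, and they were set against the other 36 cells. The deposited labels call all 42 cells retinal progenitors, so that the mark comes from the study's own classification and not from a sample label. The study made this choice from classification scores computed on these same profiles, so that the neuronal and progenitor genes described here are not independent of the choice of the cells, and every difference is given as a description without a test. All cells came from CD-1 mice, an outbred strain, with no transgene or treatment. The retinas were dissociated with papain, single cells were picked by hand at random, and their cDNA was amplified by PCR and hybridized to 1 Affymetrix array per cell. The study checked the quality of the amplified cDNA by PCR for Pax6, Chx10 and cyclin D1 before the arrays, so that the presence of such progenitor genes is not independent of which preparations were profiled. The other cells comprised 11 cells of E12.5, 3 of E13.5, 1 of E14.5 (cell D7), 1 of E15.5, 8 of E16.5 and 12 of P0, the day of birth. Of these, 24 came from the 4 stages that hold a transitional cell and form the comparison within stages. No animal or litter is named for any cell, so that each class was treated as 1 sample. Shares of cells carry exact (Clopper-Pearson) 95% intervals that cover counting error only.

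RPCs divide in the outer part of the developing retina and give rise to ganglion cells first, followed by horizontal cells, cones and amacrine cells, and later by rods, bipolar cells and Müller glia. A cell that leaves the cycle loses Notch signaling, in which the receptor Notch1 drives repressors of the Hes family that hold back neuronal genes. Proneural factors such as Atoh7 and Neurog2 are then followed by genes of the neuronal cytoskeleton and of secretion. Neuronal mRNA can be made before the last division is complete, so that progenitor and neuronal mRNAs can be found in the same cell.

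A gene was represented by the highest signal of its probe sets and called present at a signal of 1000 or more, the level of background used by the study. A signal below 1000 does not show that a cell lacked the mRNA, since a transcript can be lost in the amplification of a single cell. Of 18194 genes measured, 13200 were present in at least 1 of the 42 cells. A gene was counted as more or less frequent where the percent of transitional cells in which it was present differed by 40 points or more from that of the other cells.

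The arrays of the transitional cells differed from the others over all genes. The 100 highest genes held 21.2 to 31.4% of the summed gene signal in the transitional cells and 9.76 to 19.8% in the other cells, so that the groups did not overlap. A signal of 50000 or more was reached by 71 to 550 genes in the transitional cells, against 0 to 98 genes in the other cells. Of 263 genes present in at least 90% of the other cells, a set chosen after the values were seen, the transitional cells held 169 (A6), 247 (B1), 197 (D5), 186 (E5), 189 (F1) and 238 (C5), or 64.3 to 93.9%. For each of the other cells, with the cell itself left out of the choice, this share was 70.3 to 100% with a median of 95.6%. The widely found genes that were present had a median signal of 14105 to 178839 in the transitional cells and 10884 to 34218 in the other cells. It was highest in A6 (178839), E5 (102569) and D5 (46280), which lay above all of the other cells. In these arrays a signal above every other cell was therefore not particular to single genes. The number of genes present was 1386 to 5253 in the transitional cells, with a median of 2352.5, and 1674 to 4828 in the other cells, with a median of 3062.5. Cells A6 and F1 stood apart within the class. They held 557 and 1134 genes found in no other cell, against 9 to 35 in the other 4 transitional cells and 8 to 77 in the 36 other cells. They also held 17 and 32 of 178 immunoglobulin, keratin, muscle and chemosensory receptor genes, against 0 to 3 in the other 4 transitional cells and 0 to 6 in the 36 other cells. The hybridization controls of F1 differed from their median pattern by 0.65 (SD, log2 scale), similar to 4 arrays of other E16.5 cells (0.64 to 0.67), while the other 5 transitional arrays lay at 0.05 to 0.13. The part of these array differences in the results was not tested, and values without A6 and F1 are given beside the main counts and lists below.

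**Figure D1:**
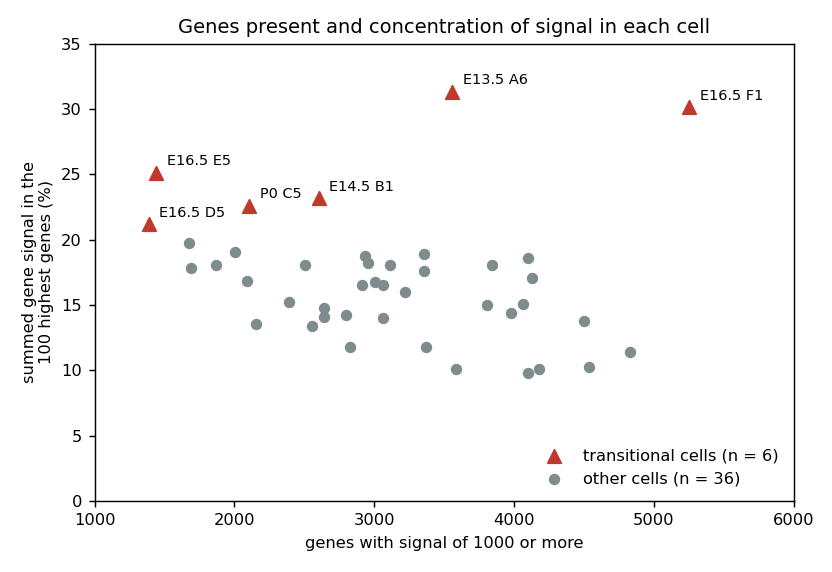
Genes with a signal of 1000 or more (horizontal axis) and percent of the summed gene signal held by the 100 highest genes (vertical axis) in each of the 42 cells; triangles are the 6 transitional cells and circles the 36 other cells. All triangles lie above all circles on the vertical axis (21.2 to 31.4% against 9.76 to 19.8%), while on the horizontal axis they span 1386 to 5253 genes.

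Against the 36 other cells, 176 genes were more frequent in the transitional cells (1.33% of the 13200 genes) and 755 were less frequent (5.72%). When each transitional cell was set against the other cells of its own stage (for B1 the single cell D7), 160 genes were more frequent (1.21%) and 1078 less frequent (8.17%). Against the 24 other cells of the same stages, 176 genes were more frequent (1.33%) and 1001 less frequent (7.58%), of which 159 and 715 were also counted against all other cells. This count is not a test. The median difference over all genes was -2.78 points against all other cells and -4.17 points against those of the same stages. The split of the counts depended on the scaling. More frequent genes made up 18.9% of those counted, against 54.8% after quantile normalization (667 more and 551 less frequent), 48.7% when the 3000 highest genes of each cell were taken as present (525 and 552) and 66.1% at a level of 500 (872 and 448). Of the 176 more frequent genes, 4 were present in all 6 transitional cells, 17 in 5, 50 in 4 and 105 in 3. The genes were spread unevenly over the cells, since A6 held 159 of them, F1 157, E5 128, B1 84, C5 52 and D5 44, and 141 were present in both A6 and F1. Most of these signals were low, with 109 of the 159 in A6 and 130 of the 157 in F1 between 1000 and 2500. Without A6 and F1, 109 genes were more frequent (0.967%) and 957 less frequent (8.49%), and 59 of the 176 and 594 of the 755 were counted again.

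Neuronal genes were among those with the largest differences at high signal. When a signal of 5000 or more was required, 22 genes were more frequent (0.258%) and 185 less frequent (2.17%), headed by Stmn3 (69.4 points) and Scg3 (61.1), with Rbpms and the splicing gene Snrpd3 tied behind them (58.3). The ribosomal transcription factor gene Rrn3 (52.8) and Prm1, Slc39a1 and Nudt16l1 (50.0 each) followed, so that the 22 genes were not of 1 kind. Stmn3 encodes a stathmin that regulates microtubules in neurons. Its signal was 2287 in A6, 43798 in B1, 61680 in D5, 137211 in E5, 98979 in F1 and 5431 in C5, against a median of 506 (136 to 20051) in the other cells. It was present in 6 of 6 transitional cells (interval 54.1 to 100%), 12 of 36 other cells (33.3%, 18.6 to 51.0%) and 9 of the 24 of the same stages. The 4 cells B1, D5, E5 and F1 lay above every other cell, while A6 and C5 lay within their range. Scg3, which encodes secretogranin III of secretory granules, was at 448, 18858, 22971, 66868, 110171 and 3571 in A6, B1, D5, E5, F1 and C5, against a median of 43 (6 to 9106) in the other cells. It was present in 5 of 6 transitional cells and in 8 of 36 other cells, and again B1, D5, E5 and F1 lay above all other cells. Without A6 and F1 the difference for Scg3 was 77.8 points, against 61.1 points with them. Of all 463 genes present in 8 of the other cells, 3 were present in 5 or more transitional cells, and of all 357 genes present in 12 of them, 1 was.

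The promoters of Stmn3 and Sncg are shown because Stmn3 was the neuronal gene present in all 6 transitional cells with the largest difference and Sncg is a working marker of the class, and because each holds an E-box of the kind bound by proneural bHLH factors. They run 5′ to 3′ from 250 bases before to 50 bases after the start in the RefSeq table (GRCm38.p6), with the motif CAGATG or its reverse complement CATCTG in capitals.
Stmn3 promoter, chr2:181314451-181314750, minus strand: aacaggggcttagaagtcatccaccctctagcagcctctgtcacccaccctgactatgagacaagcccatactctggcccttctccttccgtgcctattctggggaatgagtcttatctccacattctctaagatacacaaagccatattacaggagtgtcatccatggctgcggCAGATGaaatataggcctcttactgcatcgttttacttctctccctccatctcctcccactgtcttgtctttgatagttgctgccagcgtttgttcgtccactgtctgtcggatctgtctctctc
Sncg promoter, chr14:34374620-34374919, minus strand: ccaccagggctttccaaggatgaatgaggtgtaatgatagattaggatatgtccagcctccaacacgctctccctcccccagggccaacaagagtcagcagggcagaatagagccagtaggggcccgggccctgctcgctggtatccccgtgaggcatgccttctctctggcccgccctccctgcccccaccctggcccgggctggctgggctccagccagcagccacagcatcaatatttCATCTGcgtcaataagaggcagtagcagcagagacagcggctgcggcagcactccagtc
Both strands were searched, and 5635 of 32851 promoters in the table (17.2%) hold the motif. The same window of Scg3 (chr9:75684007-75684306, minus strand) holds none. A match of letters does not show that a factor binds there.

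Among the 18 markers of retinal ganglion cells measured, a median of 5.5 (1 to 10) was found in the transitional cells and 1 (0 to 9) in the other cells, also 1 in those of the same stages. The counts were 4 in A6, 10 in B1, 5 in D5, 6 in E5, 6 in F1 and 1 in C5. Against the mean of the other cells of its own stage, the transitional median was higher by 3 genes, against 4.5 genes over all other cells. In that comparison 1 gene of the list was more frequent (1.21% over all genes). Of the 17 present in any cell, 2 were more frequent and 0 less frequent, against 1.33% and 5.72% over all genes, and their median difference was 13.9 points. Without A6 and F1, 3 were more frequent (0.967% over all genes) and the median difference was 16.7 points. One of the pair was Rbpms, an RNA-binding protein gene of ganglion cells, at 605, 24767, 5911, 36555, 56345 and 68 in A6, B1, D5, E5, F1 and C5. It was present in 4 of 6 transitional cells (66.7%, interval 22.3 to 95.7%) and 7 of 36 other cells (19.4%), whose highest signal was 13058. The second was Isl1, a LIM homeodomain factor of ganglion and amacrine cells, present in B1 (8452), E5 (12172) and F1 (1205) and in 3 of 36 other cells, none above 4314. Sncg, which encodes gamma-synuclein, missed the limit of 40 points with a difference of 38.9, and stood at 41.7 points against the same stages and 72.2 points without A6 and F1. It was at 848, 21069, 90542, 4574, 91 and 3371 in A6, B1, D5, E5, F1 and C5, so that B1 and D5 exceeded the highest other cell (17869). Stmn2, the stathmin of growing axons, showed little difference, with 3 of 6 transitional cells and 16 of 36 other cells. Nefl, the light neurofilament chain around which the study built its ganglion cell score, was present in 2 of 6 transitional cells (B1 at 6284 and D5 at 26797) and 8 of 36 other cells. The study reported Brn3b (Pou4f2) without Nefl in B1 and F1. Nefl in B1 therefore differed from that account, while F1 was at 237. Pou4f2 was not among the 10 ganglion cell genes present in B1, and its own signals in B1 and F1 are not given here.

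Pan-neuronal genes were present at a median of 14.5 of 28 (9 to 17) in the transitional cells and 6 (3 to 21) in the other cells. The median difference was 16.7 points, with 3 genes more frequent and 0 less frequent, against 1.33% and 5.72% over all genes. Without A6 and F1 the median difference was 13.9 points, with 5 more frequent (0.967% over all genes). Against the mean of the other cells of its own stage, the median of the transitional cells was higher by 4.75 genes, against 8.5 genes over all other cells. Beside Stmn3 and Scg3 the third was Stmn4, a further stathmin, at 3612 in A6, 3919 in B1 and 9535 in D5 and under 1000 in all 36 other cells (highest 531). Syt7, a synaptotagmin that senses calcium in exocytosis, was also below 1000 in every other cell (highest 753) and was at 1060 in A6, 9941 in B1, 39769 in E5 and 1333 in F1, so that 2 of its 4 signals were well above the level of presence. Uchl1, a neuronal ubiquitin hydrolase, was present in 6 of 6 transitional cells and 22 of 36 other cells. Neuronal genes were also present in unmarked cells. Over both lists (46 genes), 20 or more were present in 3 of 6 transitional cells (B1, D5 and F1) and in 9 of 36 other cells, and the highest counts were 30 in P0 C1 and 29 in P0 B6, neither of which was marked as transitional.

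**Figure D2:**
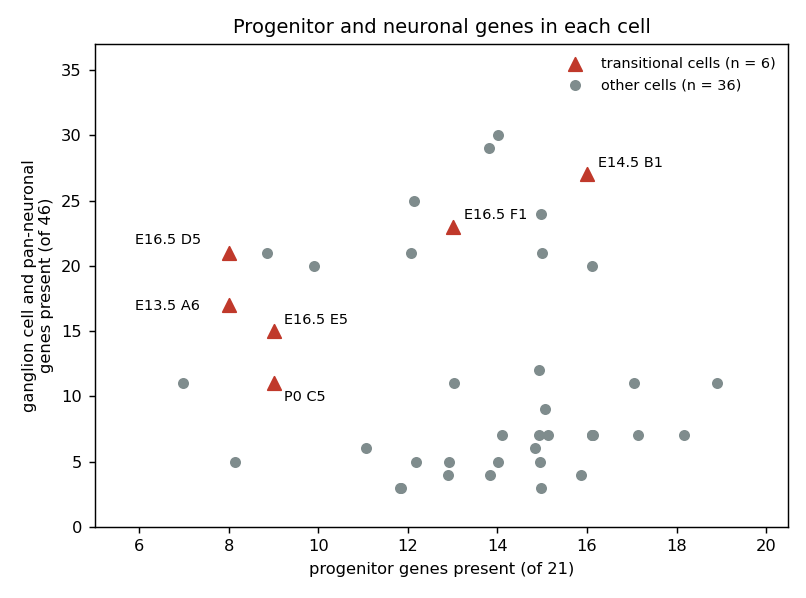
Number of progenitor genes present (of 21, horizontal axis, with a small sideways shift of the circles) and number of ganglion cell and pan-neuronal genes present (of 46, vertical axis) in each cell; triangles are the 6 transitional cells and circles the 36 other cells. A6, D5, E5 and C5 lie at 8 or 9 progenitor genes with 11 to 21 neuronal genes. The unmarked cells E16.5 D6 (9 progenitor and 21 neuronal genes), P0 C8 (10 and 20) and E12.5 E5 (7 and 11) lie near them. B1 and F1 have 16 and 13 progenitor genes and lie among the other cells with many neuronal genes.

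Progenitor genes were present at a median of 9 of 21 (8 to 16) in the transitional cells and 14.5 (7 to 19) in the other cells, or 15 in those of the same stages. Of the 21 genes, 5 were less frequent (Notch1, Sox2, Lhx2, Rcn1 and Nes) and 0 more frequent, against 5.72% and 1.33% over all genes, and the median difference was -11.1 points. The 5.72% includes genes too rare in the other cells to be counted as less frequent. Without A6 and F1, 4 were less frequent (8.49% over all genes) at the same median difference. Notch1, the main Notch receptor of RPCs, was at 481, 629, 25, 111, 1698 and 191 in A6, B1, D5, E5, F1 and C5, against a median of 4655 in the other cells. It was present in 1 of 6 transitional cells (16.7%, interval 0.421 to 64.1%) and 32 of 36 other cells (88.9%, 73.9 to 96.9%), while 4.88 transitional cells would be expected from the other cells of their own stages. F1, the single positive cell, was itself below the other cells' median. Sox2, a SOX factor that maintains neural progenitors, was present in B1 (12140) and F1 (1218) only and in 32 of 36 other cells, with a median of 11558. Lhx2, a LIM homeodomain factor of the eye field, was present in B1 (12250) and C5 (11308) only and also in 32 of 36 other cells. Without A6 and F1 the difference for Lhx2 was -38.9 points and no longer reached 40. Among all 72 genes present in 32 of the other cells, 6 were present in at most 1 transitional cell and 17 in at most 2. Nes, which encodes the intermediate filament nestin, was in 0 of 6 transitional cells and 15 of 36 other cells.

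Ccnd1 anchors the score by which the study recognized RPCs, and both it and Pax6 were used in the PCR check of the cDNA, so that their presence was partly fixed by the choice of cells and is given as a description. Ccnd1, the cyclin of the G1 phase, was at 195597, 36029, 36834, 208860, 144353 and 79084 in A6, B1, D5, E5, F1 and C5, against a median of 35800 and a highest signal of 68636 in the other cells. A6, E5, F1 and C5 were above every other cell. In A6 and E5 the widely found genes were high as well, with median signals of 178839 and 102569, against a median of 16500 in the other cells. Pax6, the eye field factor kept in RPCs and in ganglion and amacrine cells, was present in 5 of 6 transitional cells, and F1 at 972 was just below the level. Plagl1, an imprinted zinc finger gene of RPCs, was also present in 5 of 6, with A6 at 999. The genes of the study's RPC scores were divided among the cells. Fgf15, a growth factor broadly expressed in RPCs, was present in B1 (33282), D5 (80707) and C5 (11075) and in 29 of 36 other cells. Its difference was -30.6 points, and -5.56 points without A6 and F1. Sfrp2, a secreted Wnt inhibitor, was present in A6 (68920), B1 (15496), D5 (19035) and F1 (1652) and in 25 of 36. Crym, a marker of late RPCs, was present in D5 (15413), F1 (3357) and C5 (13936) and in 16 of 36.

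**Figure D3:**
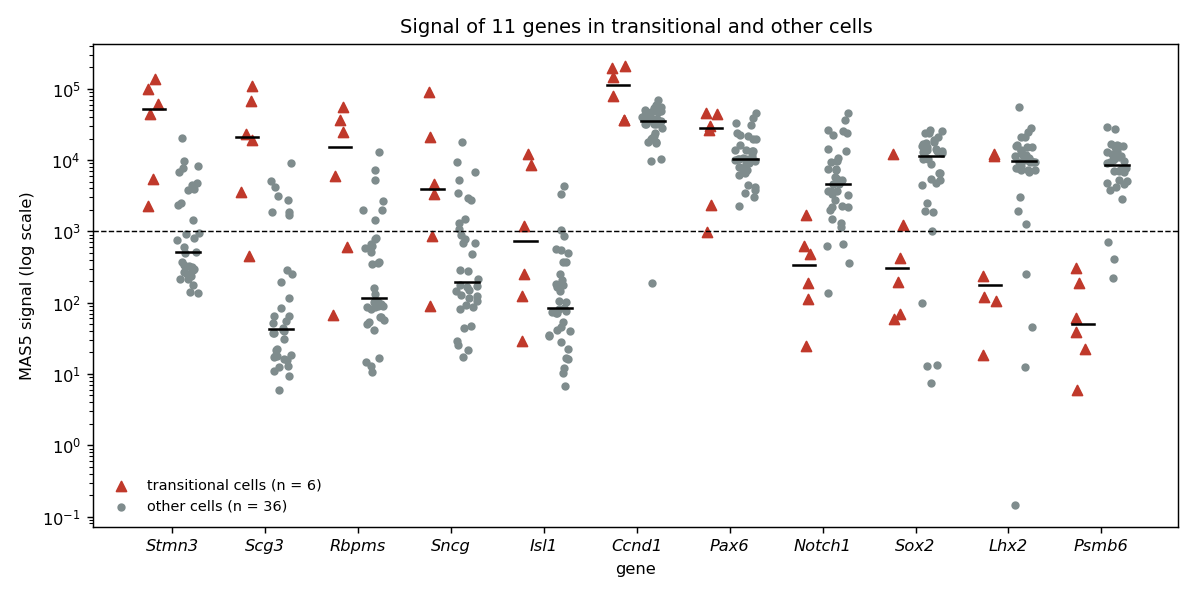
MAS5 signal (vertical axis, log scale) of 11 genes (horizontal axis) in the 6 transitional cells (triangles, left) and the 36 other cells (circles, right), with a line at each median and a dashed line at 1000. Stmn3 and Scg3 lie above the other cells in 4 transitional cells, Ccnd1 is present in all 6, and Psmb6 is below 1000 in all 6 and present in 33 of 36 other cells.

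Genes of DNA replication were among the less frequent genes. The transitional cells held a median of 8 of 29 S phase genes (6 in A6, 16 in B1, 7 in D5, 2 in E5, 9 in F1 and 12 in C5), and the other cells held 18.5 (6 to 28). Only 4 of the 36 other cells held 8 or fewer. In total, 10 of the 29 genes were less frequent and 0 more frequent, against 5.72% and 1.33% over all genes, and the median difference was -33.3 points. The 5.72% again includes genes too rare in the other cells to be counted as less frequent. Of all 157 genes present in 21 other cells, 18 were in 0 transitional cells and 62 in at most 1. Tk1 (thymidine kinase), Cdt1 (licensing of replication origins) and Gins2 (a subunit of the replicative helicase) were below 1000 in all 6 transitional cells and present in 20, 21 and 21 of 36 other cells. Pcna, the sliding clamp of the replication fork, was present in 3 transitional cells and 34 of 36 other cells. Without A6 and F1, 6 genes were less frequent (8.49% over all genes) and the median difference of the list was -30.6 points. Against their own stages 11 were less frequent (8.17% over all genes).

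Of 35 mitotic (G2/M) genes, the transitional cells held a median of 11.5 (7 to 21) and the other cells 24 (1 to 34). Of these genes 5 were less frequent (Birc5, Cenpe, Mad2l1, Racgap1 and Nuf2) and 0 more frequent, against 5.72% and 1.33% over all genes. The 5.72% includes genes too rare in the other cells to be counted as less frequent. The share was larger among genes present in as many other cells. Of all 243 genes present in 16 other cells, as Cenpe was, 45 were in 0 transitional cells. Of all 77 genes present in 29 other cells, as Mad2l1 was, 33 were in at most 2. The median difference was -25.0 points, and -13.9 points with 6 less frequent genes without A6 and F1 (8.49% over all genes). Against their own stages the median of the transitional cells was lower by 6.15 genes, against 12.5 genes over all other cells. C5 held 21 genes and B1 16. Single genes chosen after their values were seen were high in C5 and D5. Birc5 (survivin) was at 42214 in C5 and 61556 in D5, against at most 34313 in the other cells, and the centromeric histone gene Cenpa was at 45245 in C5 and 57907 in D5, against at most 26818. In E5 the anaphase inhibitor gene Pttg1, or securin, was at 177827, against at most 46008 in the other cells. The widely found genes had a median signal of 102569 in E5, 46280 in D5 and 24906 in C5, against at most 34218 in the other cells.

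Genes of neurogenesis and of the exit from the cycle had similar medians in both classes. Of 22 neurogenic factors a median of 6.5 (4 to 10) was found in the transitional cells and 5 (1 to 15) in the other cells, with 0 genes counted in either direction. Foxn4, a factor of amacrine and horizontal cell genesis, was at 1499, 15075, 213, 74909, 1576 and 326 in A6, B1, D5, E5, F1 and C5, and was present in 4 of 6 transitional cells and 16 of 36 other cells. B1 and E5 lay above the highest other cell (11256), and the signals of A6 and F1 were near the level of presence. The difference for Foxn4 was 22.2 points, and 5.56 points without A6 and F1. Of 19 genes of cell cycle exit a median of 5 (4 to 7) was found in the transitional cells and 6 (1 to 12) in the other cells, an order turned round at a level of 5000 (0.5 genes more in the transitional cells), and 1 was less frequent, Ccng2, which encodes cyclin G2 (0 of 6 and 17 of 36). Btg2, an antiproliferative gene switched on in neurogenic divisions, was present in D5 (25379), E5 (92640) and C5 (18200) and at 865 or below in A6, B1 and F1, and in 14 of 36 other cells, a difference of 11.1 points that was 36.1 points without A6 and F1. Of the 5 working markers Sncg, Rbpms, Stmn2, Foxn4 and Btg2, a median of 2.5 (2 to 5) was found in the transitional cells and 2 (0 to 5) in the other cells, and E5 was the single transitional cell with all 5.

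In the Notch pathway a median of 4 of 21 genes (2 to 12) was found in the transitional cells and 5 (1 to 9) in the other cells, an order turned round by quantile normalization and at a level of 500 (1.5 and 0.5 genes more in the transitional cells), and 1 gene, Notch1, was less frequent. Hes1, a repressor downstream of Notch, was found at 83362 in E5 and 6465 in B1 and at most at 5566 in the other cells. Hes5 reached 23456 and the Notch feedback gene Nrarp 21670 in F1, each above all other cells. Notch1 itself was at 111 in E5 and 1698 in F1.

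The late progenitor genes, which rise in RPCs towards birth, depended on the cells compared. A median of 3.5 of 14 (2 to 7) was found in the transitional cells, against 4 (0 to 13) in all other cells and 9 (0 to 13) in those of the same stages. The cells of the same stages include 12 of P0, against 1 of the 6 transitional cells. Set against its own stage, the transitional median was lower by 0.75 genes. Ptch1, the Hedgehog receptor, was in 0 of 6 and 15 of 36. Of the 14 genes, 5 were less frequent against the same stages (7.58% over all genes) and 1, Pdpn, against the cells' own stages (8.17% over all genes). At a level of 500, after quantile normalization and with the 3000 highest genes, the transitional median was higher than that of all other cells by 2, 1 and 0.5 genes. Of 29 axon guidance genes a median of 4.5 (1 to 13) was found in the transitional cells and 6 (1 to 9) in the other cells, an order turned round at a level of 500, after quantile normalization and with the 3000 highest genes (5, 3.5 and 2.5 genes more in the transitional cells).

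Markers of later neurons were few. Of 13 amacrine cell markers a median of 2.5 (1 to 8) was found in the transitional cells and 1 (0 to 8) in the other cells, with 0 counted in either direction. Their median difference was 13.9 points, and -2.78 points without A6 and F1. Tfap2b, the factor around which the study built its amacrine cell score, was at 20844 in C5 and 1617 in F1 and present in 6 of 36 other cells, and Celf4, an RNA-binding protein gene, was present in 4 of 6 and 10 of 36. Of 19 photoreceptor markers a median of 1 was present in both classes (0 to 4 and 0 to 6). Nrl, the factor of rod fate, was present in C5 alone among the transitional cells, at 5464, against 3303 in the highest of 2 other cells. Horizontal and bipolar cell markers had medians of 0 and 0.5 in the transitional cells, and of 0 in the other cells for both lists. Müller glial genes, many of which RPCs share, were present at a median of 3 of 15 (2 to 8) in the transitional cells and 5 (1 to 9) in the other cells.

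The largest negative differences included genes that most cells use. Psmb6, a catalytic subunit of the proteasome, was at 187, 22, 39, 61, 308 and 6 in A6, B1, D5, E5, F1 and C5, against a median of 8408 in the other cells. It was present in 0 of 6 transitional cells (upper limit 45.9%) and 33 of 36 other cells (91.7%, 77.5 to 98.2%), the largest difference of all 13200 genes at -91.7 points. Eif3l, a subunit of translation initiation factor 3, and Rbmxl1, an RNA-binding protein gene, were in 0 of 6 and 31 of 36, the mitochondrial carrier gene Mtch1 and the splicing factor gene Sf3b3 in 0 of 6 and 30 of 36. Polr2a, the largest subunit of RNA polymerase II, was present in C5 (12066) and in no other transitional cell, against 33 of 36 other cells. Altogether 321 of the 755 less frequent genes were below 1000 in all 6 transitional cells.

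Among the lists of basic cell machinery, cytosolic ribosomal protein genes were as frequent in the transitional cells, with a median of 36.5 of 46 (31 to 37) and 36 (30 to 41) in the other cells and a median difference of 0 points, the order of the medians turning round at 2000 and 5000, with the mean of probe sets, against the own stages and without A6 and F1, and 1 gene, Rpl14, was less frequent (0 of 6 and 18 of 36). Subunits of the respiratory chain and ATP synthase were present at a median of 38.5 of 78 (28 to 49) in the transitional cells and 48.5 (25 to 68) in the other cells. Of 77 genes, 9 were less and 1 more frequent, among them Ndufa8 of complex I in 0 of 6 and 24 of 36. The shares over all genes were 5.72% and 1.33%, and the former includes genes too rare to be counted as less frequent. Of all 133 genes present in 24 other cells, as Ndufa8 was, 11 were in 0 transitional cells and 47 in at most 1. In this list 15 genes were less frequent against the same stages (7.58% over all genes) and 20 against the cells' own stages (8.17%). Without A6 and F1, 16 were less frequent (8.49%) and 0 more frequent (0.967%). Splicing factors and hnRNPs stood at 28 of 47 (27 to 35) in the transitional cells and 36.5 (25 to 44) in the other cells. Of these genes 5 were less and 0 more frequent, again against 5.72% and 1.33% over all genes. The splicing factor gene Srsf5 was in 0 of 6 and 25 of 36. Of all 121 genes present in 25 other cells, 9 were in 0 transitional cells and 33 in at most 1. The median difference of the splicing list was -13.9 points, and -2.78 points without A6 and F1. The summed signal of the ribosomal protein genes was 1333850 to 9891070 in the transitional cells, with a median of 2546800, and 420733 to 1965220 in the other cells, with a median of 1063050. Actb and Eef1a1, often used as housekeeping genes, were present in all 42 cells, while Hprt, a gene of purine salvage, was in 0 of 6 and 22 of 36.

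**Figure D4:**
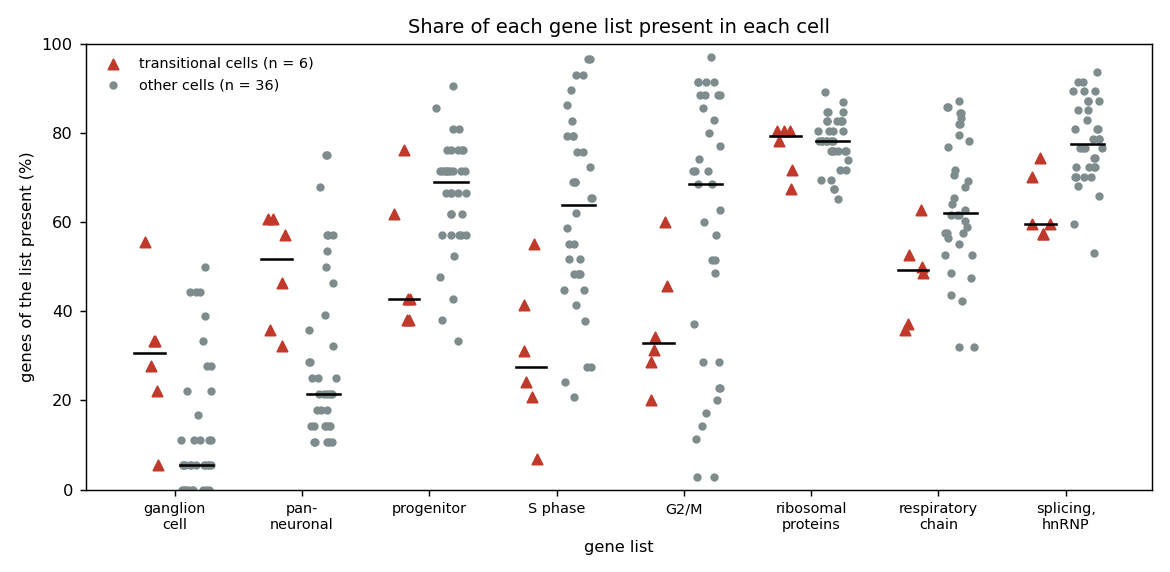
Percent of the measured genes of 8 lists (horizontal axis) that were present in each of the 6 transitional cells (triangles, left) and the 36 other cells (circles, right), with a line at each median. The S phase genes show the widest gap between the medians (8 of 29 and 18.5 of 29 genes), and ribosomal protein genes have medians of 36.5 and 36 of 46.

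Apart from Stmn3 and Scg3, the 15 largest positive differences held 1 further gene of neuronal secretion, Syt7. Fosb, an immediate early gene, was present in 5 of 6 transitional cells and 6 of 36 other cells, at 1089, 1008, 7218, 2055 and 1286 in A6, B1, D5, E5 and F1, so that those of A6, B1 and F1 lay close to the level of presence. Of 20 immediate early and heat shock genes a median of 5 (3 to 7) was found in the transitional cells and 6 (2 to 13) in the other cells, an order turned round at 500 and after quantile normalization (1 gene more in the transitional cells), with Fosb more and Hsph1, a heat shock protein gene, less frequent. Prm1, a protamine gene of sperm, was at 6767, 1061, 4226, 6878, 11495 and 2976 in A6, B1, D5, E5, F1 and C5, against at most 3590 in the other cells, of which 13 were positive. Dapk3, a kinase gene, was in 4 of 6 transitional cells at 1076 to 2491 and in 0 of 36 other cells, whose highest signal was 984. At a level of 5000 it was in 0 of 6.

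The 6 cells did not form a group of like profiles. Across genes, with signals on the log2 scale and floored at 1000, the correlation between 2 transitional cells was 0.18 to 0.34 (15 pairs, median 0.25), that between a transitional cell and another cell had a median of 0.31, and that between 2 other cells a median of 0.43 (0.25 to 0.74). B1 (median 0.41) and C5 (0.38) were the most like the other cells, and F1 (0.23) and A6 (0.26) the least. The closest profile of B1, D5, E5 and C5 was E12.5 A4, at 0.57, 0.42, 0.39 and 0.47. E12.5 A4 held 20 of the 46 neuronal genes. It also had the most genes present of the 36 other cells (4828) and the highest median correlation with the other cells (0.56), so that its closeness was not particular to the transitional cells. The closest profile of A6 and F1 was E16.5 J1 at 0.35 and 0.33, 1 of the arrays with departing hybridization controls. These correlations are across genes of arrays with different signal distributions.

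Each cell joined different genes, of which those named next were taken from the lists after their values were seen. In B1, ganglion cell genes (Ebf3 at 33101, Stmn2 at 33815, Klf7 at 12539) stood beside progenitor genes (Sox2, Lhx2, Fgf15, Hes1), replication genes (Mcm7 at 36137) and inhibitors of cyclin-dependent kinases (Cdkn1b at 16639 and Cdkn1a at 8688). In D5, Sncg (90542) and Nefl (26797) were joined by Prdm1 (31158), a factor of photoreceptor precursors, and Otx2 (8949), which acts before it, while Fgf15 stood at 80707 and Sox2 and Lhx2 at 70 and 18. E5 combined Atoh7 (47314), the proneural factor required for ganglion cells, with Foxn4, Hes6 (77880), Isl1, Gap43 (7644), Gadd45a (142533) and Btg2. Its Atoh7 signal exceeded that of the highest other cell (25362). Genes of other kinds in E5, such as Gapdh (173164) and Ldha (198278), also exceeded their highest signal in the other cells. F1 held Rbpms, Ina (28960) and Gng3 (79879) with Rax (6898) and Hes5, and the LIM homeodomain gene Lhx4 at 44933, against at most 1029 in the other cells. C5 combined Tfap2b, Nrl and the synaptic gene Snap25 (9857) with genes of late RPCs and Müller glia, Rlbp1 (38485), Crym and Car2 (6438). The profile of A6 paired the neuronal genes Nefm (375175), Dcx (158739) and Tubb3 (116800) with Six6 (227612), Sfrp2 and Col9a1 (269172).

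In A6 genes of another tissue were present as well. Lens genes were at 1000 or more for 9 of 17 measured, with Crygb at 282642, Crygd at 277341, Crybb1 at 182917, Cryga at 121902 and Cryaa at 78457, while F1 held 2 of them and B1, D5, E5 and C5 held 0. Among the other cells, E14.5 D7, the only comparison cell of its stage, held 13 and 6 further cells held 1 each. Ptprc, which encodes the leukocyte antigen CD45, was at 15985 in A6 and below 1000 in the other 41 cells. The embryonic globin gene Hbb-y was at 13841 in A6, 19930 in B1 and 2348 in F1 and present in 5 of 36 other cells. The summed signal of the lens list was 1499 to 955854 in the transitional cells, with a median of 3576, and 539 to 314095 in the other cells, with a median of 1578. The part of these genes in the difference between the classes was not tested, and A6 is left out of the values given without A6 and F1.

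Genes found in a single cell of the series at high signal numbered 4 to 9 per transitional cell at 5000 or more, against 0 to 18 in the other cells, so that the excess in A6 and F1 lay at lower signals (7 of 557 and 5 of 1134 reached 5000). The strongest were Col24a1 (198788), a fibrillar collagen, in A6, the noncoding RNA Pvt1 (17421) in B1, 1700017N19Rik (42733) in D5, the zinc finger gene Zmat4 (122116) in E5, the cell adhesion gene Mdga2 (87871) in F1 and Nrsn1 (34292), a gene of neuronal vesicles, in C5.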

How the data were processed

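All cells are 42 single cell profiles, 1 array each. The files hold linear intensity values (signals), which the authors obtained with MAS5, named in the submitters' processing notes, and scaled array by array. With 2% of the values trimmed from either end, the mean of every array was 500.00 to 500.02. Present calls were not used. How a transcript amplified, and this scaling to a fixed mean, could both change whether it reached 1000.

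Of 45101 probe sets, 34958 had 1 gene symbol in the platform annotation, 9211 had none here, and the 932 with several were left out. By gene identifier 34754 matched the RefSeq table. From the deposited signals the highest probe set of a gene was taken. All columns were used through the sample labels. The class of a cell was taken from the study's classification figure.

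Each class was 1 sample and no p-value was computed. Genes were counted at a difference of 40 points in percent of cells. The counting was tested on simulated data with known differences. The members and the lists were chosen with earlier results of these data known. Genes named were the 5 working markers, the genes of the classification scores, the 15 largest differences in each direction, up to 4 genes of the largest difference per list (up to 3 of the most frequent for quality, other tissue and background lists) and the 5 strongest genes found in a single transitional cell, while others are named as chosen after their values were seen, as are genes of a list that were counted. Alternatives were the level of presence, the mean of probe sets, quantile normalization, the 3000 highest genes, the cells compared, cells left out and the size of the difference. Python 3.11.15, pandas 2.3.3, numpy 2.4.6, scipy 1.17.1 and matplotlib 3.10.9 were used.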

Additional observations from a re-analysis of the deposited data

Results flagged for a closer look

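In 59 sets of 6 values, 1 per transitional cell, 12 held a cell whose gap to the nearest of the others was large against the whole range (Dixon's limit). The limit gives about 1 in 20 for independent, continuous values. Many of these sets were small counts with ties, where 1 gene in a single cell is enough. The 12 are therefore a description, and whether they exceed chance cannot be judged. Cell F1 was set off in 6 of the 12, with the hybridization control pattern at 0.65 (SD, log2 scale), 8 of 13 amacrine cell genes, 5 of 6 bipolar cell genes, 12 of 21 Notch pathway genes, 3 of 10 mesenchyme genes and 10 of 76 chemosensory receptor genes. Cell A6 was set off in 4, with 9 of 17 lens genes, 1 of 5 horizontal cell genes, 1 of 10 microglia genes and a Gapdh signal of 2207, against 59617 to 173164 in the other 5 transitional cells. Cell C5 held 8 of 15 Müller glial genes, against 2 to 4 in the other 5, and B1 held 7 of 19 genes of cell cycle exit, against 4 or 5.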

How the results depend on the processing

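No paired analysis was possible because no test was made and no animal is named. The number of more and less frequent genes was 176 and 755. It was 872 and 448 at a level of 500, 46 and 670 at 2000, 22 and 185 at 5000, 73 and 674 with the mean of probe sets, 667 and 551 after quantile normalization, 525 and 552 with the 3000 highest genes, 160 and 1078 against the cells' own stages, 162 and 863 without the 5 arrays with unusual hybridization controls (F1 among them), 109 and 957 without A6 and F1, 754 and 1645 at 30 points and 62 and 332 at 50 points. Leaving out 1 transitional cell at a time gave 128 (without F1) to 546 (without D5) more frequent and 714 to 979 less frequent genes. Omitting B1, E5 or C5 gave 472, 446 and 513 more frequent genes. In 2 settings chosen after seeing the data, there were 150 and 158 at 5000 without A6 and F1, and 292 and 309 against the 16 other cells with at most 3000 genes.

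Of the lists, 309 of 324 values under an alternative moved by less than the spread between cells. In 23 of the 324 the sign was opposite to the main one, and in 4 of these the move exceeded that spread. The difference of medians for axon guidance became 5 at 500, 3.5 after quantile normalization and 2.5 with the 3000 highest genes, and for the Notch pathway 1.5 after quantile normalization. The other 19 small sign changes fell in these lists and in those of ribosomal proteins, late progenitor, immediate early and cell cycle exit genes, whose differences lay between -5.5 and 2. At 500, photoreceptor genes stood at 2.5 and splicing genes at -4. At 5000, ganglion cell genes stood at 1.5, progenitor genes at -2.5 and housekeeping genes at -1. Late progenitor genes stood at -5.5 against the same stages. At 5000 without A6 and F1, values were -2 for progenitor, -4 for S phase, -1.5 for G2/M, -4 for splicing and -1 for housekeeping genes. Of 3204 values of named genes, 3099 stayed within the interval, and among the genes past 40 points 4 values changed direction: Col1a2 (-5.56 points at 5000, with and without A6 and F1), Wipi1 (-5.56 points at 5000 without A6 and F1) and Efnb2 (11.1 points after quantile normalization). The cause of these changes was not tested. With 6 cells, 1 cell moves a share by 16.7 points.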

Other observations

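Of the probe sets without a gene name here, 4138 reached 1000 in at least 1 cell, of which 35 were more frequent and 102 less frequent in the transitional cells by 40 points or more.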
